A study of Homo sapiens with 6 samples.

Results

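The G1 cyclins, their cyclin-dependent kinases (CDKs), 2 CDK inhibitors and the retinoblastoma gene form a set of 10 genes, CCND1, CCND3, CCNE1, CCNE2, CDK2, CDK4, CDK6, CDKN1A, CDKN1B and RB1, taken by gene name from a count table of 58978 genes. All 10 were found and passed the expression filter that left 14809 genes. They were followed in 6 RNA-seq libraries of HT29, an established human colorectal adenocarcinoma line. In 3 libraries the cells held a control hairpin (shCTRL, genotype labelled WT) and in 3 a short hairpin RNA against FITM2 (shFITM2, labelled as FITM2 knockdown), an endoplasmic reticulum protein needed for lipid droplet formation. All cells were labelled untreated and were grown in McCoy's 5A medium with 10% fetal bovine serum. The sources used here give neither the hairpin sequences nor whether the cells were a pool or a clone.

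In G1, mitogen signals raise D-type cyclins, which bind CDK4 and CDK6 and begin to phosphorylate the retinoblastoma protein RB1. E-type cyclins with CDK2 complete that step, RB1 releases E2F transcription factors, and E2F switches on the genes of DNA synthesis, cyclin E among them. The CIP/KIP inhibitors p21 (CDKN1A), p27 (CDKN1B) and p57 (CDKN1C) bind cyclin-CDK2 complexes and block them. In the colonic epithelium cyclin D1 is a target of Wnt signalling, and p21 and p27 mark cells that leave the cycle.

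The libraries held 16964075 to 18855731 counts. FITM2 mRNA was at 4.82 to 5.97 CPM (counts scaled to the TMM-adjusted library size) in shFITM2 and at 10.4 to 13.2 CPM in shCTRL, 46.0% of control. Fold changes over all genes followed the GC content of the transcripts, with a Spearman correlation of 0.744 over 14635 genes (a description, since genes are no replicates). It was 0.0031 once a GC offset was added, which is no check, since the offset was fitted to this same trend. Slopes were taken on the log2 deviation of each gene from its own mean over the 6 libraries, so they are relative between libraries. For each 10 points of GC, this deviation changed by −0.34 to −0.065 in shCTRL and by 0.18 to 0.26 in shFITM2. The shallowest slope was that of shCTRL replicate 3, which stood apart from the other shCTRL libraries. Each change is therefore given from a fit with group as its sole term. It is also given from a fit with a GC offset for each gene and library (after GC correction). A change of the cells and a change in library chemistry that follow GC cannot be told apart in either fit. The offset takes out both. Epithelial markers summed to 10413 to 12593 CPM in shCTRL and 14295 to 15097 CPM in shFITM2. Most of the sum was KRT8 (6133 and 8372 CPM in the group means) and KRT18 (2715 and 3434 CPM), while EPCAM was lower in shFITM2 (633 and 548 CPM). All 10 were detected, but the intestinal factors CDX1 and CDX2 were at 0.45 to 1.71 CPM in the group means. Fibroblast markers summed to 1.06 to 2.81 and 1.26 to 1.53 CPM, and endothelial markers to at most 1.40 CPM. The leukocyte list reached 775 to 901 and 886 to 926 CPM, mostly through LYZ (841 and 901 CPM in the group means). Of its other genes, CD14 was at 10.6 and 11.3 CPM and PTPRC at 0.018 and 0.055 CPM. The part of these markers, and of the GC slopes, in the values below was not tested.

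Of the 10 genes, 3 were called higher (CDKN1A, CDKN1B and CCND3) and 5 lower (RB1, CCND1, CCNE2, CCNE1 and CDK6) in shFITM2 at an adjusted p under 0.05, and 2 were not called (CDK2 and CDK4). The background is wide, as 48.7% of all tested genes were called, 24.2% higher and 24.5% lower. With the GC offset 2 were called higher (CDKN1A and CDKN1B) and 3 lower (CCND1, CCNE1 and RB1), where 29.2% of 14635 genes were called, 11.8% higher and 17.4% lower. These 5 genes were called in the same direction in both fits, against 17.9% of all genes. The CPM values of the groups did not overlap for 8 of the 10 genes, against 59.0% of all tested genes. The count of called genes was 8, and it dropped to 5, 4 and 5 without shCTRL replicate 1, shFITM2 replicate 1 and shFITM2 replicate 2, and was 9 without shCTRL replicate 3. The count over all tested genes moved with it, from 7205 to 5665, 5338, 5478 and 9008 in the same order. With the GC offset it ran from 4 to 5 over the 6 left-out libraries.

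**Figure D1:**
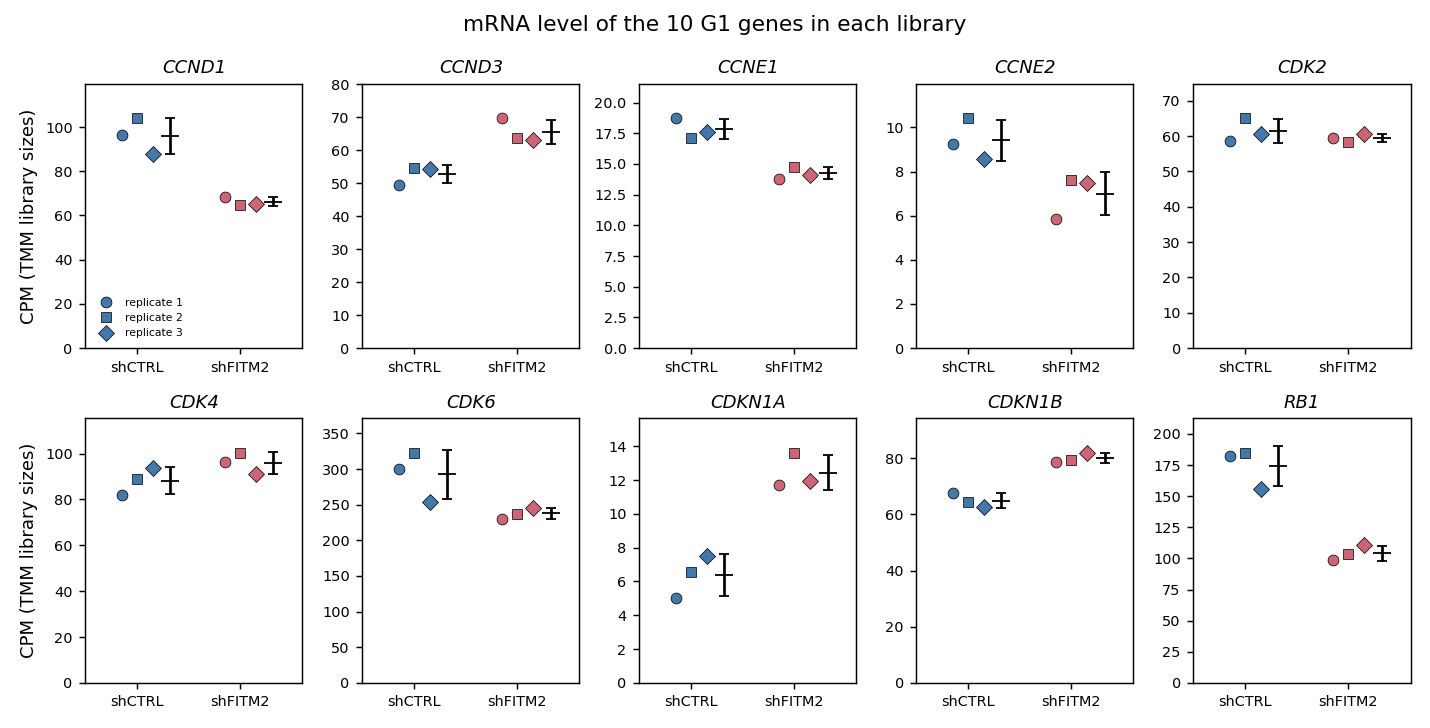
CPM of each of the 10 genes (y axes from 0, different scales) in the 3 shCTRL (blue) and 3 shFITM2 (red) libraries, with replicate numbers as marker shapes and black bars for mean ± SD. CDKN1A rises from 5.03 to 7.50 CPM in shCTRL to 11.7 to 13.6 CPM in shFITM2, RB1 and CCND1 fall without overlap, and CDK2 and CDK4 overlap between the groups.

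**Figure D2:**
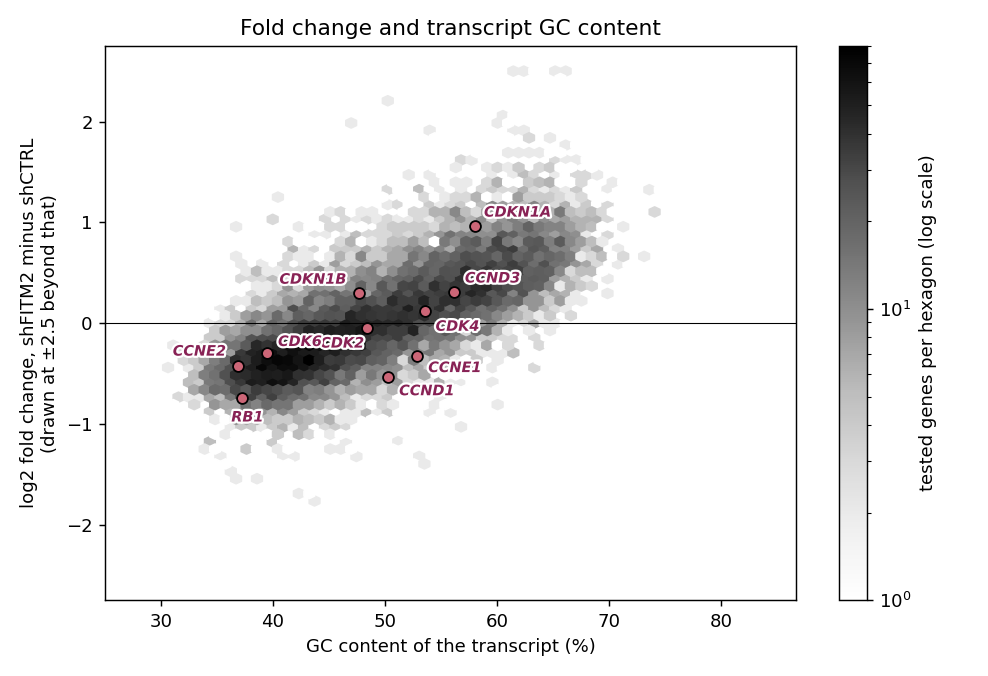
Log2 fold change (shFITM2 minus shCTRL, group fit) against the GC content of 1 transcript per gene. Grey hexagons hold the 14635 tested genes with a GC value, and the 10 genes are labelled points. Extreme fold changes are drawn at the limit named on the y axis. RB1, CCNE2 and CDK6 lie at 37.3%, 36.9% and 39.5% GC, where most genes have negative values. Relative to the trend with GC, CCND1, CCNE1 and RB1 lie lower and CDKN1A and CDKN1B higher.

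**Figure D3:**
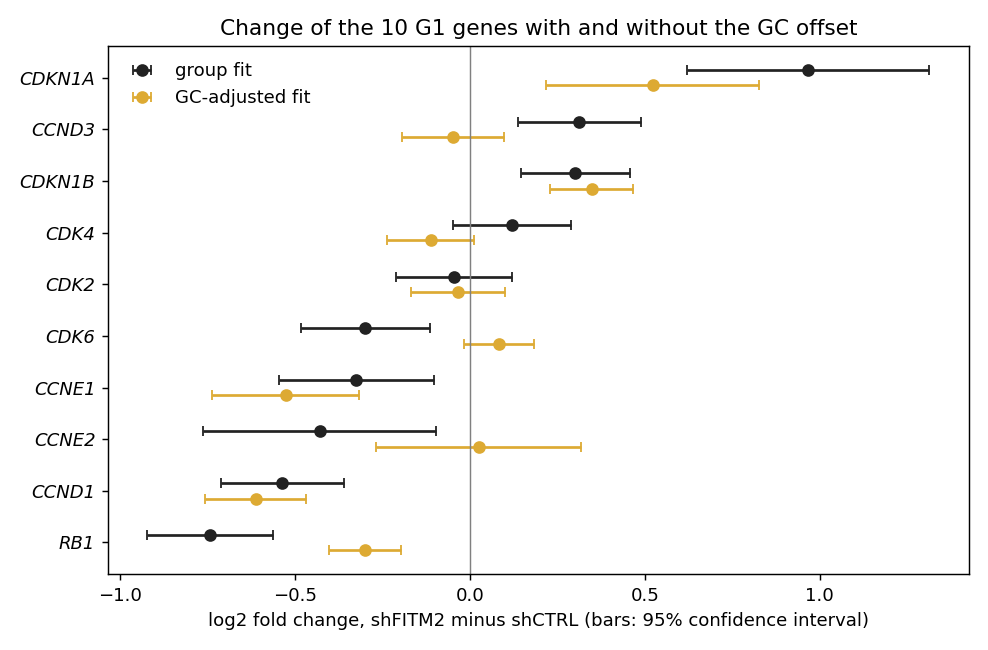
Log2 fold change of the 10 genes with 95% confidence intervals in the group fit (black) and with the GC offset (yellow). The points of CDKN1B and CCND1 stay close in both fits, those of CDKN1A and RB1 move toward 0 and remain apart from it, and those of CCND3, CCNE2 and CDK6 come to lie beside 0.

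Cyclin D1, the main mitogen-induced D-type cyclin of epithelial cells, fell, whereas cyclin D3 rose in the group fit alone. CCND1 (ENSG00000110092, chromosome 11, 69641087 to 69654474, plus strand, GRCh38) was at 96.6, 104.0 and 87.7 CPM in shCTRL and 68.6, 64.9 and 65.2 CPM in shFITM2. All 3 shFITM2 libraries lay below every shCTRL library, at 68.9% of the control mean. The log2 fold change of CCND1 was −0.54 ± 0.080 (SE; adjusted p = 0.000342, from edgeR, adjusted over all tested genes) and −0.61 ± 0.068 after GC correction (adjusted p = 1.03e-05). When the offset used the mean GC of all transcripts of a gene instead of 1 transcript, the fall of CCND1 was larger, at −1.19. Exons of LTO1 on the opposite strand overlap 10.3% of the exonic bases of CCND1. LTO1 had 36.9% as many reads and a log2 fold change of 0.23 (adjusted p = 0.0571).

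CCND3 (ENSG00000112576, chromosome 6, 41934933 to 42050357, minus strand) was at 49.6, 54.6 and 54.2 CPM in shCTRL and 69.8, 63.8 and 63.2 CPM in shFITM2. The groups did not overlap, and the log2 fold change of CCND3 was 0.31 ± 0.080 (adjusted p = 0.00722). With the GC offset it was −0.049 (95% confidence interval −0.19 to 0.097; adjusted p = 0.646), and in the group fit CCND3 was not called once shFITM2 replicate 1 was left out (0.26, adjusted p = 0.0514). Within a library, the ratio of CCND1 to CCND3 counts needs no scaling of the libraries. As log2 it was 0.96, 0.93 and 0.69 in shCTRL and −0.025, 0.024 and 0.046 in shFITM2, so that reads of both genes were close to equal in number in every shFITM2 library. The difference of −0.84 had p = 0.1 in an exact two-sided permutation test, the smallest that 3 against 3 libraries allow, and 0.133 after adjustment over the 4 gene pairs compared. The difference between the GC-adjusted fold changes of the 2 genes was −0.56.

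Of the kinases that D-type cyclins activate, CDK4 did not pass the test and CDK6 was lower in the group fit alone. CDK4 (ENSG00000135446, chromosome 12, 57747727 to 57756013, minus strand) was at 81.8, 89.0 and 93.8 CPM in shCTRL and 96.4, 100.3 and 91.0 CPM in shFITM2, with overlapping groups. Its log2 fold change was 0.12 (95% confidence interval −0.048 to 0.29; adjusted p = 0.216) and −0.11 after GC correction (−0.24 to 0.012; adjusted p = 0.168). CDK4 was called without shCTRL replicate 3 (0.16, adjusted p = 0.0316) and, in the other direction, when the offset used the mean GC of all transcripts (−0.22, adjusted p = 0.0106). Exons of TSPAN31 on the opposite strand cover 43.2% of the exonic bases of CDK4. TSPAN31 had 33.2% as many reads, and its log2 fold change was 0.047 (adjusted p = 0.787).

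CDK6 (ENSG00000105810, chromosome 7, 92604921 to 92836594, minus strand) had the most reads of the 10 genes and the longest transcript, at 11612 bases. It was at 300.4, 323 and 254 CPM in shCTRL and 229.9, 237 and 246 CPM in shFITM2, where shCTRL replicate 3 lay nearest to the shFITM2 libraries. The log2 fold change of CDK6 was −0.30 ± 0.085 (adjusted p = 0.0125) and 0.082 ± 0.047 after GC correction (adjusted p = 0.213), so its direction turned. With the mean GC of all transcripts in the offset it was −0.41 (adjusted p = 0.012). In the group fit CDK6 was not called with shCTRL replicate 1 (adjusted p = 0.0564), shFITM2 replicate 1 (0.0633) or shFITM2 replicate 2 (0.0513) left out. The log2 ratio of CDK4 to CDK6 counts was −1.87, −1.86 and −1.44 in shCTRL and −1.25, −1.24 and −1.43 in shFITM2. The highest shCTRL value was that of replicate 3 and almost met the lowest shFITM2 value (difference 0.41, exact permutation p = 0.1, adjusted p = 0.133). The difference between the GC-adjusted fold changes of CDK4 and CDK6 was −0.19, in the other direction.

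**Figure D4:**
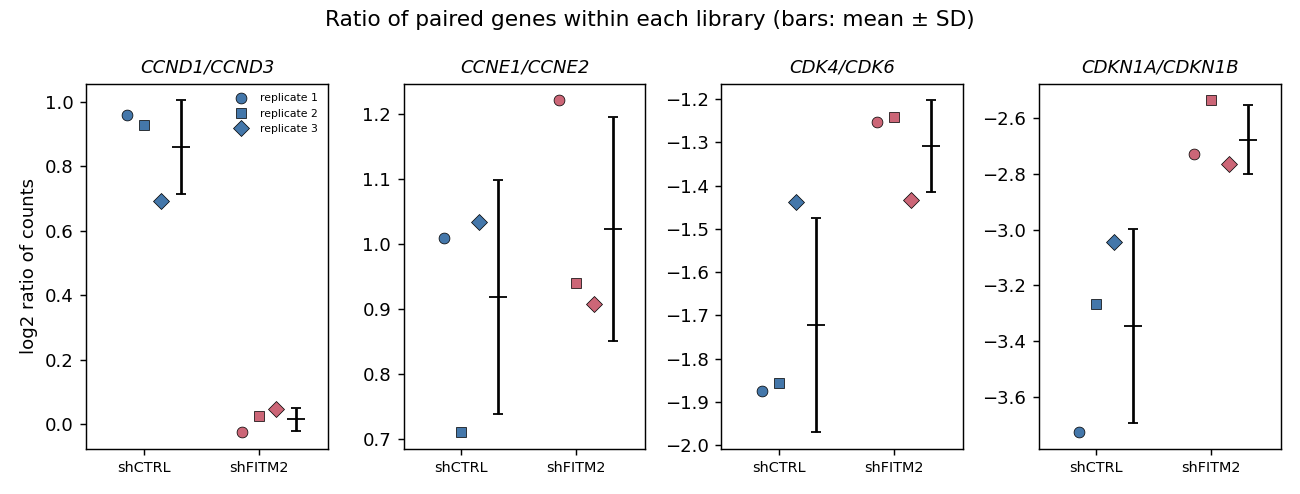
Log2 ratio of the counts of 2 genes in each library, for 4 pairs of related genes, with separate y axes that do not start at 0 and bars for mean ± SD of 3 libraries. The CCND1 to CCND3 ratio drops from 0.69 to 0.96 in shCTRL to near 0 in shFITM2, and the CCNE1 to CCNE2 ratio overlaps between the groups.

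Both CDK inhibitors rose. Whether their changes differed could not be decided by the exact permutation test of their ratio. Its p of 0.1 (adjusted p = 0.133) is the smallest that 3 against 3 libraries allow. CDKN1A (ENSG00000124762, chromosome 6, 36676460 to 36687339, plus strand) was at 5.03, 6.59 and 7.50 CPM in shCTRL and 11.7, 13.6 and 12.0 CPM in shFITM2. Every shFITM2 library was above every shCTRL library and the mean was 195% of control, from 95 to 237 reads per library. The log2 fold change of CDKN1A was 0.97 ± 0.159 (adjusted p = 0.00058) and 0.52 ± 0.144 after GC correction (adjusted p = 0.0121), the largest rise of the 10 genes in both fits. The GC-corrected value missed the threshold when shCTRL replicate 1 (0.39, adjusted p = 0.0661) or shFITM2 replicate 2 (0.45, adjusted p = 0.0772) was left out, whereas the call of the group fit was kept in all 6 left-out fits.

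CDKN1B (ENSG00000111276, chromosome 12, 12715058 to 12722371, plus strand) was at 67.8, 64.3 and 62.7 CPM in shCTRL and 78.5, 79.5 and 81.9 CPM in shFITM2. The groups did not overlap and the spread within each was under 3 CPM (SD 2.61 and 1.76, n = 3), with a mean at 123% of control. Its log2 fold change was 0.30 ± 0.071 (adjusted p = 0.00479) and 0.35 ± 0.056 after GC correction (adjusted p = 0.000271). CDKN1B kept its call in both fits with each library left out. The log2 ratio of CDKN1A to CDKN1B counts was −3.73, −3.26 and −3.04 in shCTRL and −2.73, −2.54 and −2.76 in shFITM2. The groups did not overlap in this ratio (difference 0.67, exact permutation p = 0.1, adjusted p = 0.133), and the difference of the GC-adjusted fold changes was 0.17.

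The promoters of the 2 inhibitors, which rose together, and of CCNE1, which fell, are shown for the 250 bases before the start that RefSeq lists (GRCh38.p14, plus strand, 5′ to 3′), where 7 of the 10 genes have an entry. Capitals mark matches to the GC box GGGCGG on either strand, the sequence bound by Sp1-type factors, and in CDKN1B also to the CCAAT box. The CDKN1A window is chr6:36678464-36678713, that of CDKN1B chr12:12717118-12717367 and that of CCNE1 chr19:29811741-29811990.
CDKN1A: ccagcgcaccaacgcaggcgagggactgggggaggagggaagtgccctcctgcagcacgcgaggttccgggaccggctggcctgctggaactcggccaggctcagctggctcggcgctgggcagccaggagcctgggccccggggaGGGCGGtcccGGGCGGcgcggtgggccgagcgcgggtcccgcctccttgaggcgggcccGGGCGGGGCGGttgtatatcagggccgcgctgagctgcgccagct
CDKN1B: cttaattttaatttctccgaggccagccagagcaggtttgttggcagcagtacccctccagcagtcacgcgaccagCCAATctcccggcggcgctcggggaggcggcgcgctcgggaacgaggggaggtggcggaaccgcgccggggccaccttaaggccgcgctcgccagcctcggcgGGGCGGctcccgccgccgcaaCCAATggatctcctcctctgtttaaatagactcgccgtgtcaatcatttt
CCNE1: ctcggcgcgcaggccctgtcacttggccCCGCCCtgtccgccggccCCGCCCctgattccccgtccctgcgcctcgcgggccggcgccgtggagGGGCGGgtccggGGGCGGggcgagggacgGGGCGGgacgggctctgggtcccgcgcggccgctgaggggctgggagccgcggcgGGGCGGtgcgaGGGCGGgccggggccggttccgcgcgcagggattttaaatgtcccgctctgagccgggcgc
The GC box occurred 4 times in CDKN1A, 1 time in CDKN1B and 7 times in CCNE1, and at least 1 match was present in 42.6% of 35116 listed starts. CCAAT on either strand occurred 2 times in CDKN1B and in 32.01% of all starts. The windows were 76.4%, 64.4% and 81.2% GC. The E2F letters TTTGGCGC, TTTCGCGC, TTTCCCGC and TTTGGCGG, searched on both strands and present in 2.83% of starts, did not occur in these 3 windows. The windows of CDKN1A and CDKN1B lie within the gene spans given above, and that of CCNE1 runs across the start of its span. The start listed for RB1, which fell, lies far inside the gene, with a window from 48476200 in a span that starts at 48303726. This window held 0 GC boxes, and the start of the RB1 span was not examined. Windows of the other listed starts held 3 GC boxes in CDK4, 3 and 0 in CDK6, and 5, 2 and 0 in CCND3.

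Of the E-type cyclins, themselves E2F targets, CCNE1 fell in both fits and CCNE2 in the group fit alone. CCNE1 (ENSG00000105173, chromosome 19, 29811898 to 29824308, plus strand) was at 18.7, 17.1 and 17.6 CPM in shCTRL and 13.8, 14.8 and 14.1 CPM in shFITM2. The shFITM2 libraries all lay below the shCTRL libraries, at 79.8% of the control mean. The log2 fold change of CCNE1 was −0.32 ± 0.102 (adjusted p = 0.0202) and −0.53 ± 0.099 after GC correction (adjusted p = 0.000937). In the group fit the call was lost with no expression filter (adjusted p = 0.053) and when shCTRL replicate 1 (0.0743), or shFITM2 replicate 1 (0.077), 2 (0.0511) or 3 (0.058), was left out. With the GC offset it was kept without each library in turn, at −0.56 to −0.49.

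CCNE2 (ENSG00000175305, chromosome 8, 94879770 to 94896678, minus strand) was at 9.26, 10.4 and 8.55 CPM in shCTRL and 5.86, 7.64 and 7.48 CPM in shFITM2, from 107 to 193 reads per library. Its log2 fold change was −0.43 ± 0.153 (adjusted p = 0.0355) and 0.024 after GC correction (95% confidence interval −0.27 to 0.32; adjusted p = 0.92). The call was lost with the DESeq2 Wald test (adjusted p = 0.0549) and without any library but shCTRL replicate 3 (adjusted p = 0.0539 to 0.148). Exons of INTS8 on the opposite strand overlap 37.1% of the exonic bases of CCNE2, and INTS8 had 9184 reads against 881 for CCNE2 and a log2 fold change of −0.77 (adjusted p = 0.000287). The part of INTS8 reads in the CCNE2 values was not tested. The log2 ratio of CCNE1 to CCNE2 counts overlapped between the groups, at 0.71 to 1.03 in shCTRL and 0.91 to 1.22 in shFITM2 (exact permutation p = 0.6, adjusted p = 0.6). The difference of their GC-adjusted fold changes was −0.55.

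CDK2, the partner kinase of cyclin E, did not pass the test. CDK2 (ENSG00000123374, chromosome 12, 55966769 to 55972784, plus strand) was at 58.6, 65.1 and 60.6 CPM in shCTRL and 59.5, 58.5 and 60.6 CPM in shFITM2. The shFITM2 values lay within the range of the control libraries but for the lowest, which was just below it. The log2 fold change of CDK2 was −0.046 (95% confidence interval −0.21 to 0.12; adjusted p = 0.637) and −0.033 after GC correction (−0.17 to 0.10; adjusted p = 0.745).

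RB1, the substrate of these kinases and the brake on E2F, fell furthest of the 10 genes in the group fit. RB1 (ENSG00000139687, chromosome 13, 48303726 to 48599436, plus strand) was at 182, 185 and 156 CPM in shCTRL and 98.8, 103 and 111 CPM in shFITM2. No library of one group came near the other, and the mean was 59.7% of control. The log2 fold change of RB1 was −0.74 ± 0.082 (adjusted p = 7.45e-05) and −0.30 ± 0.048 after GC correction (adjusted p = 0.000271), and the call was kept in both fits with each library left out. LPAR6 lies on the opposite strand within the span of RB1, with no shared exonic bases, and had 974 reads against 15013 for RB1. In these bulk libraries, fewer cells with an mRNA and less of it per cell cannot be told apart, for RB1 as for the other genes.

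Levels were compared between genes as TPM, computed from the counts and the gene lengths in the table. These lengths exceed those of the transcripts used for GC by unlike amounts, as for CCND3 (5802 and 2394 bases) and CDK6 (12260 and 11612 bases). The order and the gaps below therefore hold for the gene lengths only, and transcript lengths were not tried. In shCTRL the order was CDK4 at 91.3 ± 7.25 TPM (SD, n = 3), RB1 at 88.5 ± 8.13, CDK6 at 78.1 ± 9.67, CDKN1B at 75.6 ± 2.24, CCND1 at 65.2 ± 5.97, CDK2 at 51.7 ± 3.54, CCND3 at 29.8 ± 2.00, CCNE1 at 22.9 ± 0.698, CCNE2 at 7.01 ± 0.769 and CDKN1A at 6.85 ± 1.41. The ranges of neighbours overlapped among CDK4, RB1, CDK6 and CDKN1B and between CCNE2 and CDKN1A, and the other neighbours were apart. In shFITM2, CDK4 at 98.5 ± 4.40 TPM and CDKN1B at 92.6 ± 2.07 TPM stood highest with overlapping ranges. RB1 followed CDK6 (63.1 ± 2.05 TPM) at 52.6 ± 2.97 TPM, overlapping CDK2 at 49.7 ± 1.14 TPM, and CDKN1A at 13.3 ± 1.00 TPM was above CCNE2 at 5.17 ± 0.700 TPM.

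Partner genes of the G1 switch (other cyclins, inhibitors, pocket proteins, E2F factors and the MuvB subunits) had 26 tested members of 28. Of these 4 were called higher and 13 lower, with a median log2 fold change of −0.22 against −0.0002 for all tested genes, and with the GC offset 3 higher and 9 lower, with a median of −0.077 against −0.027. The share called was 65.4% against 48.7% of all genes, and 46.2% against 29.2% with the GC offset. In both fits 1 of the 26 was higher and 5 were lower, where 17.9% of all genes were called in the same direction in both. E2F1 (0.28 and −0.38) and CDK1 (−0.28 and 0.17), named after their values were seen, were called in opposite directions. CDKN1C, which encodes the CIP/KIP inhibitor p57, was at 4.81, 5.13 and 6.27 CPM in shCTRL and 12.6, 12.7 and 13.0 CPM in shFITM2. CDKN1C rose by 1.24 ± 0.140 on the log2 scale (adjusted p = 8.17e-05) and by 0.53 after GC correction (adjusted p = 0.00644). With CDKN1C, which was named for its small p, all 3 CIP/KIP genes were called higher in both fits, as were 1157 of 14635 genes. CDKN2D, an INK4 inhibitor of CDK4 and CDK6, had 0.90 (adjusted p = 0.000252) and 0.31 after GC correction (adjusted p = 0.0855). RBL1, which encodes the pocket protein p107, fell from 48.1 ± 7.27 to 28.0 ± 1.91 CPM, by 0.78 on the log2 scale (adjusted p = 0.000287) and by 0.42 after GC correction (adjusted p = 0.0014). CCNC, the cyclin of the Mediator kinase, fell by 0.61 and by 0.22 (adjusted p = 0.000295 and 0.0089).

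Genes that activate CDKs or turn over G1 proteins numbered 25, all tested. In the group fit 5 rose and 11 fell (64% called, against 48.7% of all genes), with a median of −0.23. After GC correction 1 rose and 8 fell (36%, near the 29.2% of all genes), with a median of −0.12. In both fits 0 were higher and 5 of the 25 lower, near the 17.9% of all genes called in the same direction in both. CDC25B, named after its values were seen, was called in opposite directions (0.34 and −0.16). SKP2, the F-box protein that targets p27 for degradation, fell from 123 ± 14.1 to 76.3 ± 3.09 CPM, by 0.69 on the log2 scale (adjusted p = 0.000163) and by 0.37 after GC correction (adjusted p = 0.000194). DTL, the substrate receptor that targets p21 and CDT1 during S phase, fell by 0.88 (adjusted p = 6.83e-05) and by 0.59 after GC correction (adjusted p = 4.33e-05). The nuclear exporter gene XPO1 fell by 0.66 and by 0.29 (adjusted p = 6.73e-05 and 0.000136). FZR1, an activator of the anaphase-promoting complex in G1, had 0.72 (adjusted p = 0.000209) and 0.0012 after GC correction (adjusted p = 0.993), where its sign turned in 3 of the 6 fits that left out a library.

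Genes that E2F drives at the G1/S boundary were mostly lower. In the group fit 14 of 26 were called lower and 4 higher (69.2% called, against 48.7% of all genes), with a median of −0.27. With the GC offset 20 were lower and 0 higher by edgeR (also 0 higher at an unadjusted p under 0.05), with a median of −0.32 (76.9% called, against 29.2% of all genes). In both fits 13 of the 26 were lower, where 17.9% of all genes were called in the same direction in both. TK1 (0.30 and −0.37) and MCM7 (0.22 and −0.20), named after their values were seen, were called in opposite directions. RRM2, the regulatory subunit of ribonucleotide reductase, had 133, 147 and 128 CPM in shCTRL and 56.6, 55.5 and 59.3 CPM in shFITM2, and the polymerase clamp gene PCNA had 255, 266 and 268 CPM in shCTRL and 153, 157 and 159 CPM in shFITM2. Both fell, RRM2 by 1.25 on the log2 scale (adjusted p = 5.23e-06) and PCNA by 0.75 (adjusted p = 2.33e-05), and by 1.12 and 0.59 after GC correction (adjusted p = 4.32e-09 and 5.3e-07). MCM6, of the replicative helicase, fell by 0.57 on the log2 scale (adjusted p = 0.000194) and by 0.33 after GC correction (adjusted p = 0.000413). MCM4, of the same helicase, fell by 0.49 and by 0.48 (adjusted p = 0.000165 and 3.27e-06).

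**Figure D5:**
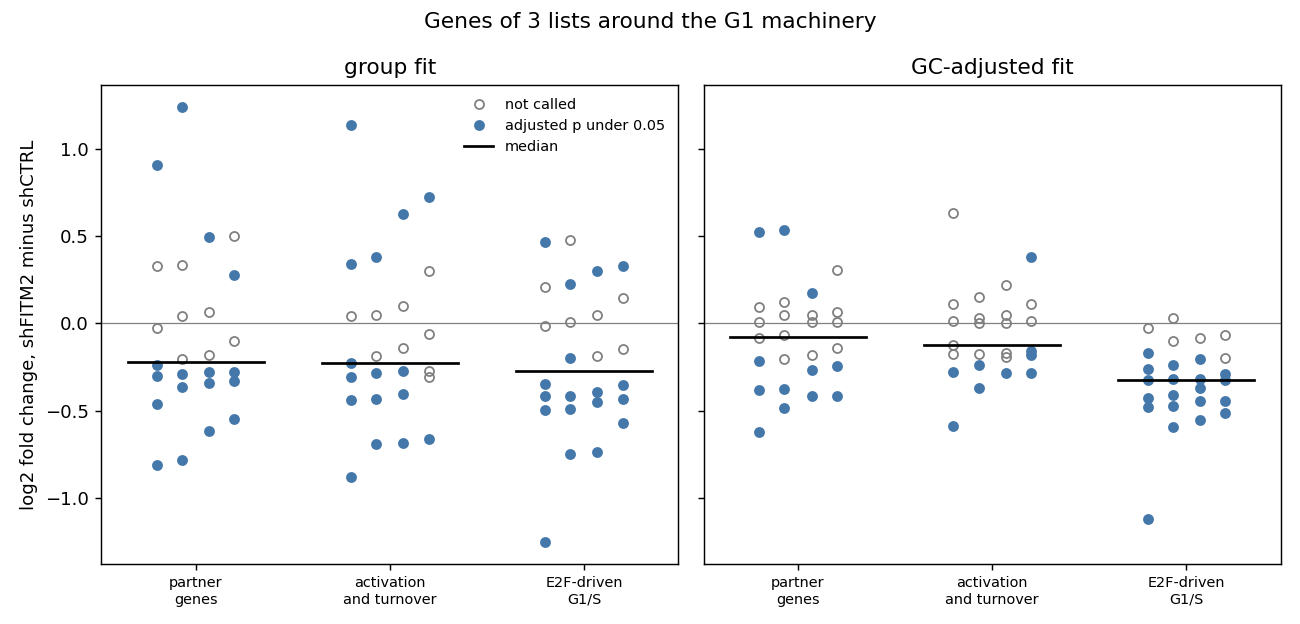
Log2 fold change of each tested gene of the 3 lists, in the group fit (left) and with the GC offset (right), with filled points at an adjusted p under 0.05 and lines at the list medians. The median of the E2F-driven genes is −0.27 in the group fit and −0.32 with the GC offset.

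The patterns of the 3 called genes with the largest changes were compared with 9936 other protein-coding genes of at least 5 CPM by Pearson's r of log2 CPM over the 6 libraries, which share group and GC slope. CDKN1A was most like LZTS3 (r = 0.9988) and SMAD3 (r = 0.9957), RB1 most like TMEM181 (r = 0.9997) and SEC24B (r = 0.9996), and CCND1 most like GNPTAB (r = 0.9991) and ERGIC2 (r = 0.9990). LZTS3 had a log2 fold change of 0.70, SMAD3 of 0.21, TMEM181 of −0.33, SEC24B of −0.51, GNPTAB of −0.59 and ERGIC2 of −0.59. After GC correction the values were 0.046, 0.13, −0.094, −0.26, −0.34 and −0.073 in the same order. Of these only SEC24B and GNPTAB were called (adjusted p = 0.00278 and 0.00261, from edgeR).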

How the data were processed

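The authors deposited raw read counts per gene for all 6 libraries in 1 table. Libraries were made from Trizol-extracted total RNA with a strand-keeping NEBNext kit, per the labels' protocols, and the strand setting of the counting is not given in the sources used here. Tools listed, without roles, in the submitters' processing notes are featureCounts 1.5.0-p3, HISAT2 2.0.5, DESeq2 1.16.1 and StringTie 1.3.3b, with hg19 as build, but all 10 genes have the GRCh38 positions of GENCODE release 29, as in the table. The deposited gene length, in bases, has the unit other and was used for TPM.

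Titles gave the groups. Since the labels name no separate cultures, p-values measure only how these libraries spread, in part perhaps for technical reasons. Replicates differed beyond sampling noise (chi-square per gene 2.33 to 29.0) and were counted separately.

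Counts were tested with edgeR 4.0.16 (limma 3.58.1, R 4.3.3; quasi-likelihood, robust, TMM; minimum count 10, minimum total 15), and DESeq2 1.42.0 was an alternative. The GC offset (GC correction) came, for each library, from a spline (6 degrees of freedom) through the log2 deviations of the genes against the GC of 1 GENCODE transcript per gene, the longest coding one where there is one. Ratios took a pseudocount of 2. The fits were tested on simulated data. The text names the 10 genes, FITM2, up to 4 genes of smallest p in each list shown and the most similar genes. Members, lists and the GC offset were chosen with earlier results of these data known. A further gene list is not reported here.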

Additional observations from a re-analysis of the deposited data

How the results depend on the processing

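DESeq2 size factors and library totals kept the direction and the call of all 10 genes. The replicate block kept 8 calls (5 with the replicate block and the GC offset together) and changed no call of the 10 genes. Same-numbered libraries did not deviate together (correlations −0.041, −0.0066 and −0.065), so the numbers were not taken as pairs. SMAD3 was not called with the block (0.21, adjusted p = 0.0632). With the GC offset, alone and with length, 5 of the 10 genes were called, 3 of them lower, and 4275 and 4224 of all genes. Of the activation and turnover genes 9 were called, against 16 in the group fit. These 9 were not all among the 16, and with the GC offset alone 5 were called in the same direction in both fits. The GC offset turned CCND3 (−0.049 and −0.040), CCNE2 (0.024 and 0.044), CDK4 (−0.11 and −0.11) and CDK6 (0.082 and 0.083). At an adjusted p under 0.01, 5 of the 10 genes and 4937 of all genes were called, and 4 and 2572 with the GC offset. Mean GC of all transcripts in the offset gave 5 genes lower and turned CCNE2 (−0.021), CDK6 (−0.41) and SMAD3 (−0.097).

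With libraries left out, 4 to 9 of the 10 genes were called, 2 to 5 of them lower, while the count over all genes ran from 5338 to 9008, and with the GC offset 1 to 2 were higher. With the GC offset, the count of all called genes ran from 2806, without shFITM2 replicate 1, to 5618. Signs turned there for CCND3 (−0.085 to 0.016), CCNE2 (−0.050 to 0.11), CDK2 (−0.074 to 0.0088), FZR1 (−0.083 to 0.049) and LZTS3 (−0.035 to 0.16), with reversed values of 0.016 for CCND3, −0.050 for CCNE2 and 0.0088 for CDK2, of −0.083, −0.033 and −0.0049 for FZR1 and of −0.035 and −0.0011 for LZTS3. The causes were not tested. Of the 10 genes, CCNE2 and CDKN1A had the fewest reads (881 and 999 over the 6 libraries), which limits their precision.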
